A study of Mus musculus with 4 samples.

Results

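The 9 genes of immature and mature B cells described here, Ms4a1, Cd22, Cd79a, Faim3, Irf4, Pou2af1, Cecr2, Fcer2a and Dtx1, are 9 of the 17230 rows of a bulk RNA-seq count table. They were chosen by their measured counts in these libraries, since most of them were among the genes most clearly higher in the Hes1-derived group of the study. The levels and differences of these 9 genes between the groups are therefore descriptions, given without a test.

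The study sorted stromal cells from mouse femurs at postnatal day 21. The Hes1-derived group had the genotype Cxcl12(GFP/+); Hes1(CreER/+); R26R(tdTomato/+), and the Fgfr3-derived group had the genotype Cxcl12(GFP/+); Fgfr3-iCreER; R26R(tdTomato/+), so that every animal carried 1 Cxcl12 allele with GFP. In both groups tamoxifen had been given at embryonic day 12.5, which switches on tdTomato permanently in cells that then express Hes1 or Fgfr3 and in their descendants. Each group had 2 libraries, numbered 1 and 3 for the Hes1-derived and 2 and 3 for the Fgfr3-derived group. Pairs of values below always follow this order, with the lower number first. The labels describe the cells as GFP-positive, tdTomato-positive CXCL12-abundant reticular (CAR) cells, but the extraction protocol mentions a sort on tdTomato only. That protocol also mentions loading on a 10X Chromium, a single-cell instrument, whereas the design text describes SMARTer amplification, and the 4 count columns, 1 per sample, were read here as bulk libraries. Whether a library held 1 animal or a pool is not stated. CAR cells are reticular cells of the marrow stroma that support blood formation, and B cells are not among the cells the sort was labelled to collect. In bulk RNA, fewer cells of a type and less RNA per cell cannot be told apart.

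B cells mature in the marrow from precursors that first assemble a pre-B-cell receptor with surrogate light chains and then a complete B-cell receptor. The receptor signals through the CD79 chains, is restrained by co-receptors such as CD22, and is followed in later stages by CD20, the IgM receptor and the IgE receptor CD23. CAR cells are known as a niche for B-cell precursors because they secrete CXCL12 and interleukin 7.

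The libraries held between 22745128 and 26804832 counted reads, and each of the 9 genes had between 33 and 16542 reads in each library. Cxcl12, the gene that defines CAR cells, stood at 7057 and 4180 CPM (counts divided by the TMM-scaled size of the library) in the Hes1-derived libraries, against 9764 and 7028 CPM in the Fgfr3-derived ones. The labelled cell type was thus present by its defining gene in all 4 libraries. The eGFP row had 6669 and 3204 CPM against 9264 and 6754 CPM, and the tdTomato-WPRE row 229 and 113 CPM against 382 and 510 CPM, in the same order. Across all 14330 tested genes, edgeR's quasi-likelihood test called 751 higher and 940 lower in the Hes1-derived group at an adjusted p under 0.05 (44.4% of the calls higher). The share of higher calls was 87.3% after scaling to the summed reads of a CAR cell list and 94.5% after scaling to eGFP reads.

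Start-site windows of 7 of the 9 genes were in the RefSeq table (build GRCm38.p6), with Faim3 matched under its current symbol Fcmr. Windows of 4 genes are shown because they belong to the 3 genes with the highest level per length and to Fcer2a, which had 1 of the 2 largest differences. Each is printed 5′ to 3′ on the strand of the gene, from 250 bases before the RefSeq start up to the start or to the first base that GENCODE M21 places in an exon. Capitals mark matches to an E box (CANNTG) or an Ets core (GGAAG), and matches on the opposite strand are marked as they read here. A second E box of Cd79a lies across the end of the stretch shown and is not marked.
Cd79a, chr7:24897247-24897380, plus strand: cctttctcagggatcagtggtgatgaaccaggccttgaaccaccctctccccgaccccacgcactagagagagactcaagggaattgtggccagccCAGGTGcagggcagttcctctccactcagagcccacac
Pou2af1, chr9:51213440-51213689, plus strand: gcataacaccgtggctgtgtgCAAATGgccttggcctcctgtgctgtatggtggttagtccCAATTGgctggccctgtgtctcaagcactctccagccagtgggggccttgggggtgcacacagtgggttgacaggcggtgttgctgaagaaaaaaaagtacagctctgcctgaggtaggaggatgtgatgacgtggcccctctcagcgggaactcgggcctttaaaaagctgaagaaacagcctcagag
Faim3, chr1:130865527-130865668, plus strand: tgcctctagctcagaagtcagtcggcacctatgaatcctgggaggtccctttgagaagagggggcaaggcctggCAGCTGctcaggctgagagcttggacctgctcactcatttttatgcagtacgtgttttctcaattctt
Fcer2a, chr8:3694176-3694424, minus strand: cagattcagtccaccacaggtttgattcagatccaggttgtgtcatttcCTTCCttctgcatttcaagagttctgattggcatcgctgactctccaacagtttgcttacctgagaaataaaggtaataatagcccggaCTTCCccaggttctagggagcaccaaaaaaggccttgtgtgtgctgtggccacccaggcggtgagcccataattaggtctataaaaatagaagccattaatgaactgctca

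A set of 4 motifs was searched on both strands in the whole 250 bases before each start, in 9 windows of these 7 genes, since Fcer2a has 3 starts in the table. The matches did not overlap each other. The octamer ATTTGCAT, which binds the POU factors that Pou2af1 assists, had no match in any of the 9 windows and was present in 1.60% of all 32851 windows of the table. An E box was present in 5 of the 9 windows against 66.2% of all windows, and an Ets core in 5 of the 9 against 64.1%. The Ebf1 core CCCNNGGG was present in 1 of the 9, that of Cd22, against 11.8% of all windows. The windows of Cd79a and Pou2af1 held 2 E boxes each, that of Faim3 held 1, and the first window of Fcer2a held 2 Ets cores and no E box. These matches describe letters only.

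The 9 genes shared a pattern across the libraries. In each of them both Hes1-derived libraries lay above both Fgfr3-derived libraries, as did 29.8% of all tested genes, and all 9 passed the filter on low counts. All 9 were called higher by edgeR, against 5.24% of all tested genes called higher and 6.56% called lower, but since the choice of the genes rests on this contrast nothing is read from that count. The log2 fold changes, Hes1-derived minus Fgfr3-derived, ran from 2.30 to 3.03 with a median of 2.49, beside a median of −0.02 over all tested genes. Ranked by log2 fold change among all tested genes, Dtx1 stood at place 49, Fcer2a at 56 and Pou2af1, the lowest of the 9, at 189. The lower of the Hes1-derived values was between 3.69 and 6.19 times the higher of the Fgfr3-derived values.

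**Figure D1:**
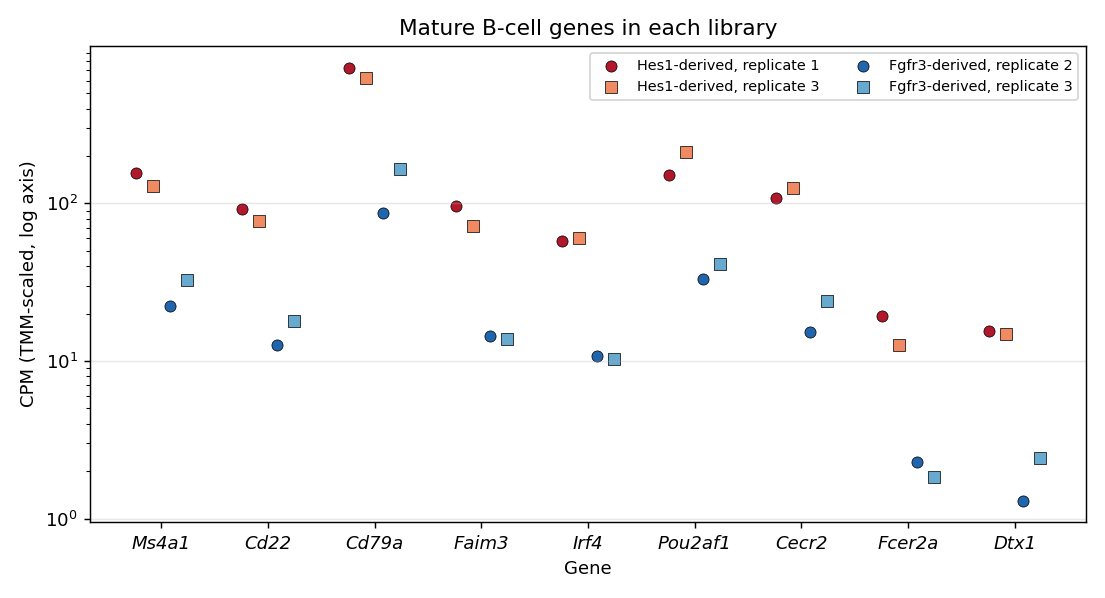
Level of each of the 9 genes in CPM (y axis, log scale) in the 4 libraries, with 1 point per library (red circle and orange square for Hes1-derived replicates 1 and 3, dark blue circle and light blue square for Fgfr3-derived replicates 2 and 3). Both Hes1-derived points lie above both Fgfr3-derived points for every gene, from Cd79a at 728 and 623 CPM against 86.4 and 166 CPM down to Dtx1 at 15.6 and 14.9 CPM against 1.30 and 2.41 CPM.

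Cd79a encodes Ig-alpha, the signalling chain of the B-cell receptor that carries its activation motif. It lies on chromosome 7 from 24897381 to 24902197 on the plus strand (GRCm38, GENCODE M21). It had 728 and 623 CPM in the Hes1-derived libraries, against 86.4 and 166 CPM in the Fgfr3-derived ones. The Hes1-derived mean was 675 ± 73.9 CPM (SD, n = 2) and the Fgfr3-derived mean 126 ± 56.6 CPM, with a log2 fold change of 2.42 ± 0.35 (SE). Among the 9 genes Cd79a had the largest gap between the Fgfr3-derived libraries on the deposited regularized log2 scale, at 0.74, a gap larger than that of 95.7% of all tested genes. Cd79a alone made up between 43.5% and 53.5% of the summed CPM of the 9 genes, depending on the library.

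Ms4a1 encodes CD20, a surface protein of B cells from the late precursor stage on. Its gene body on chromosome 19 runs from 11249675 to 11266241 on the minus strand. Its levels were 156 and 128 CPM in the Hes1-derived libraries, against 22.3 and 32.9 CPM in the Fgfr3-derived ones. The difference was 2.37 ± 0.27 (SE) on the log2 scale, or 5.16-fold. The annotation places 4930526L06Rik, an antisense gene, across the whole of Ms4a1 on the opposite strand, and the strand setting of the counting is not given in the sources used here. That gene had at most 0.076 CPM in any library. Reads of the pair cannot be told apart without strand.

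Cd22 encodes a sialic acid-binding co-receptor that dampens signals of the B-cell receptor. It lies on chromosome 7 from 30865402 to 30880342 on the minus strand, where the antisense gene Gm29439 overlaps it by 601 bases. Its levels were 91.9 and 77.6 CPM against 12.6 and 18.0 CPM in the same order of libraries, with a log2 fold change of 2.47 ± 0.26 (SE). Ms4a1, Cd22 and Cd79a moved alike between replicates. Each was higher in replicate 1 than in replicate 3 of the Hes1-derived group, by 1.22, 1.18 and 1.17 times. In the Fgfr3-derived group each was lower in replicate 2, at 0.679, 0.701 and 0.519 times its level in replicate 3. Dtx1 moved in the same directions, at 1.04 and 0.540 times, the first of these within counting error.

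Faim3, now named Fcmr, encodes the Fc receptor for IgM. The gene spans chromosome 1 from 130865669 to 130880791 on the plus strand. It had 96.2 and 71.7 CPM in the Hes1-derived libraries, against 14.5 and 13.8 CPM in the Fgfr3-derived ones, a log2 fold change of 2.57 ± 0.25 (SE). Fcer2a encodes CD23, the low-affinity IgE receptor of mature follicular B cells. GENCODE places it on chromosome 8 from 3681737 to 3694175 on the minus strand. Fcer2a had 19.4 and 12.6 CPM against 2.29 and 1.83 CPM, a log2 fold change of 2.96 ± 0.40 (SE) or 7.76-fold. The Fgfr3-derived values of Fcer2a rest on 58 and 48 reads, with 95% exact Poisson intervals of 1.74 to 2.96 CPM and 1.35 to 2.43 CPM that cover counting error only. These receptor genes differed in the spread between replicates: Fcer2a was 1.54 times and Faim3 1.34 times higher in Hes1-derived replicate 1 than in replicate 3, the largest ratios in that direction among the 9 genes.

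Irf4 encodes a transcription factor used in light chain rearrangement and in plasma cells, and also by T cells and macrophages. On chromosome 13 it extends from 30749226 to 30766976 on the plus strand. Its levels were 58.0 and 60.0 CPM in the Hes1-derived libraries, against 10.8 and 10.2 CPM in the Fgfr3-derived ones, with a log2 fold change of 2.49 ± 0.23 (SE). Irf4 had the smallest SE of the 9 genes. Pou2af1 encodes a co-activator of the octamer-binding factors in B cells and lies on chromosome 9 from 51213708 to 51240080 on the plus strand. Gm47828, a sense-intronic gene without a count of its own, overlaps it by 3789 bases on the same strand. The levels of Pou2af1 were 152 and 213 CPM against 33.0 and 41.2 CPM, with a log2 fold change of 2.30 ± 0.26 (SE). Pou2af1 went the other way from Cd79a between the Hes1-derived replicates, at 0.714 times in replicate 1 what it was in replicate 3.

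Cecr2 encodes a bromodomain protein of a chromatin remodelling complex with the ISWI-type ATPase SNF2L, and is not a gene of B cells alone. Its position is chromosome 6 from 120666369 to 120771190 on the plus strand. It had 109 and 124 CPM in the Hes1-derived libraries, against 15.4 and 24 CPM in the Fgfr3-derived ones, a log2 fold change of 2.56 ± 0.28 (SE). Dtx1 encodes Deltex 1, a ubiquitin ligase and Notch target that B cells of the spleen also use. The locus is on chromosome 5 from 120680202 to 120711927 on the minus strand. Dtx1 had 15.6 and 14.9 CPM against 1.30 and 2.41 CPM, a log2 fold change of 3.03 ± 0.43 (SE) or 8.19-fold, the largest of the 9. Its Fgfr3-derived values rest on 33 and 63 reads, with 95% exact Poisson intervals of 0.896 to 1.83 CPM and 1.85 to 3.08 CPM.

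Between replicates, 6 of the 9 genes were higher in Hes1-derived replicate 1 and 3 were higher in replicate 3, namely Irf4, Pou2af1 and Cecr2. In the Fgfr3-derived group 6 were higher in replicate 3, and Faim3, Irf4 and Fcer2a were higher in replicate 2. For Faim3, Irf4 and Fcer2a the 95% exact Poisson intervals of these replicates overlapped, as at 13.1 to 16.1 and 12.4 to 15.3 CPM for Faim3. In the Hes1-derived group the intervals of the replicates overlapped for Irf4 and Dtx1. The median gap between the replicates on the deposited regularized log2 scale was 0.18 for the 9 genes in the Hes1-derived group, beside 0.17 for all tested genes. In the Fgfr3-derived group it was 0.37 for the 9 genes beside 0.20 for all tested genes. Beyond counting error, the direction of the gap between libraries thus differed among the 9 genes in the Hes1-derived group only. There Pou2af1 and Cecr2 were higher in replicate 3.

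Levels of different genes were compared per length, as CPM per kilobase of the merged exons of each gene in GENCODE M21. In the Hes1-derived group Cd79a had 463 ± 50.7 CPM per kb (SD, n = 2), Pou2af1 71.6 ± 16.9, Faim3 48.4 ± 9.98 and Ms4a1 23.0 ± 3.24 CPM per kb. Cd22 had 16.8 ± 2.00, Irf4 12 ± 0.293, Cecr2 6.83 ± 0.642, Fcer2a 5.18 ± 1.56 and Dtx1 2.89 ± 0.0885 CPM per kb. The Fgfr3-derived means had the same order, from 86.8 ± 38.9 CPM per kb for Cd79a to 0.352 ± 0.149 CPM per kb for Dtx1. All 8 pairs of neighbours in this order kept it in each of the 4 libraries, and in both groups the ranges of neighbours over the 2 libraries did not overlap. The order depends on the exon models: merged exons of Cecr2 span 17082 bases and those of Cd79a 1457 bases, so that Cecr2 stood above Cd22, Faim3 and Irf4 in CPM but below them per kb in the Hes1-derived libraries.

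**Figure D2:**
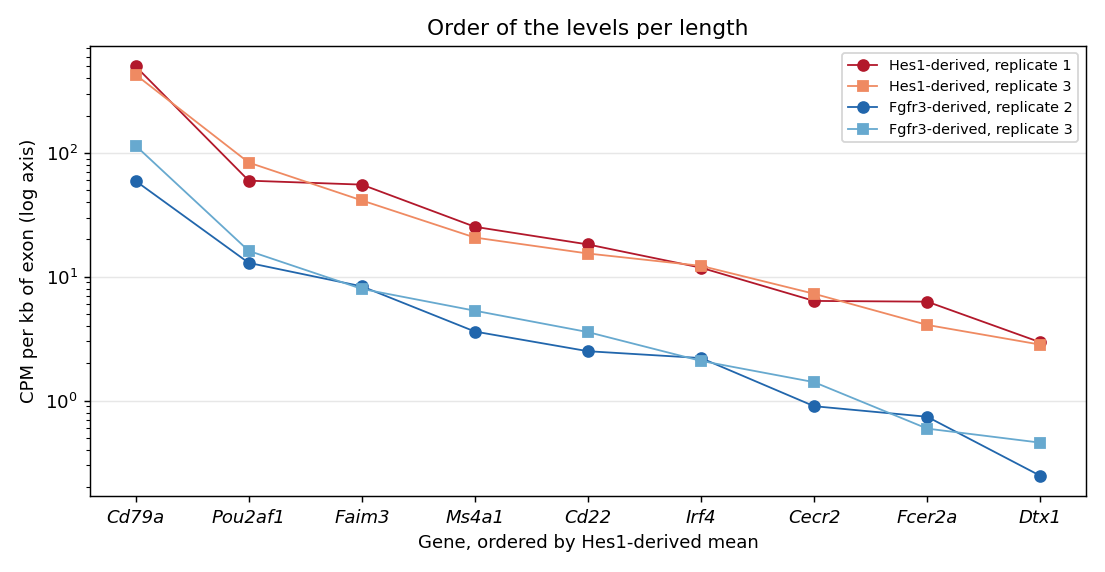
CPM per kb of merged exon (y axis, log scale) for the 9 genes ordered by their Hes1-derived mean, with 1 line per library (red and orange for Hes1-derived replicates 1 and 3, dark and light blue for Fgfr3-derived replicates 2 and 3). All 4 lines fall from Cd79a to Dtx1 without a change in order, and the Hes1-derived lines span a 160-fold range of mean levels.

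The 9 genes were then set against other reads of leukocytes and B cells within each library, which removes the scaling of the libraries. The share of all tested genes with the groups apart was not computed on these scales or those below. Counts of genes apart on them are therefore descriptions only. Per 1000 reads of 14 pan-leukocyte genes, Cd79a had 105 and 77.5 reads in the Hes1-derived libraries, against 44.2 and 39.4 reads in the Fgfr3-derived ones. Both Hes1-derived values lay above both Fgfr3-derived values for all 9 genes, with ratios of the group means between 1.82 for Pou2af1 and 3.32 for Dtx1 and a median of 2.14. Per 1000 reads of Ptprc, which encodes the pan-leukocyte protein CD45, this held for 8 of the 9, with a median ratio of 1.86, and Faim3 overlapped. Per 1000 reads of 57 other genes of B-cell signalling, inhibition and maturation it held for all 9, with a median ratio of 2.51. In that reference Cd81 and S1pr1 made up 18.8% and 17.2% of the reads in replicate 2 of the Fgfr3-derived group. Neither was higher in Hes1-derived libraries. The 9 genes were chosen as higher in this contrast, which favours high ratios to such references, so nothing is read from the ratios.

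References made of B-cell precursor genes, none of them planned, gave ratios on both sides of that value. Per 1000 reads of the whole list of 18 precursor genes, both Hes1-derived values lay above both Fgfr3-derived values for all 9 genes, with ratios from 2.76 for Pou2af1 to 4.68 for Dtx1 and a median of 3.18. Sox4, which was not called, made up 57.6% and 48.8% of the reads of that list in the Fgfr3-derived libraries and 28.96% and 23.4% in the Hes1-derived ones. Narrower references were then chosen after the data were seen. Per 1000 reads of the surrogate light chain genes Vpreb1, Vpreb2 and Igll1 together, Ms4a1 had 968 and 851 reads in the Hes1-derived libraries, against 914 and 764 reads in the Fgfr3-derived ones. Cd22 had 568 and 515 against 517 and 419 reads. On this scale the groups overlapped for 6 of the 9 genes, and the ratio of the group means had a median of 1.17, with Pou2af1 lowest at 1.02. Cd79a, Cecr2 and Dtx1 did not overlap, with ratios of 1.17, 1.26 and 1.79. Dtx1 had 96.3 and 98.98 reads in the Hes1-derived and 53.3 and 56 reads in the Fgfr3-derived libraries. Fcer2a had a ratio of 1.5, but its values of 120.2 and 83.7 reads against 93.7 and 42.7 reads overlapped. Per 1000 reads of the recombinase genes Rag1 and Rag2, 8 of the 9 overlapped, with a median ratio of 1.21, and Dtx1 lay apart at 1.81. Rag1 and Rag2 together had 723 and 1309 reads in the Hes1-derived libraries, a spread that widens these values. Vpreb1 (2.41), Igll1 (2.15), Rag1 (2.64) and Rag2 (2.01) were themselves called higher, and Vpreb2 (2.13) did not pass. Ratios near 1 to these references were thus largely fixed by their choice, and nothing is read from them.

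**Figure D3:**
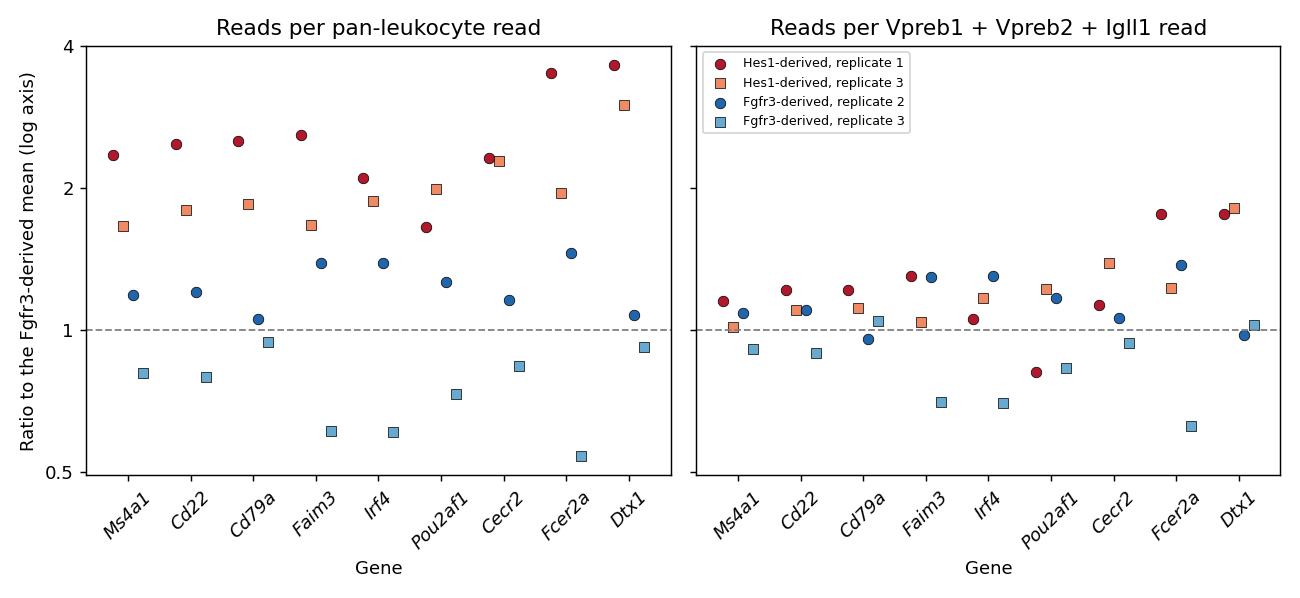
Reads of each of the 9 genes per read of 14 pan-leukocyte genes (left) and per read of Vpreb1, Vpreb2 and Igll1 (right), divided by the mean of the Fgfr3-derived libraries (y axis, log scale, dashed line at 1), with 1 point per library in the colours of the legend. On the left all Hes1-derived points lie above the Fgfr3-derived points, and on the right the groups overlap for every gene except Cd79a, Cecr2 and Dtx1.

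Other genes of the B lineage, from 10 lists by role that leave out the 9 genes, were read from the same edgeR fit. Of 138 such genes with a row, 134 were tested, of which 63 were higher (47.0%, beside 5.24% of all tested genes) and none was lower. At an unadjusted p under 0.05, 84 were higher and 7 lower, while DESeq2 called 80 higher and 5 lower and limma-voom 68 higher and 1 lower. Over all 14330 tested genes, 4307 had an unadjusted p under 0.05 in either direction. DESeq2 called 1429 of all genes higher and 1557 lower, and limma-voom 893 and 1050. Such counts for the lists below stand beside these numbers, and nothing is read from small counts among them. The median log2 fold change was 1.33. Without Fgfr3-derived replicate 2, and without Hes1-derived replicate 3, fewer of these genes were called higher, and so were fewer of all tested genes. After scaling to eGFP reads 42 of these genes were higher, while the higher calls over all genes fell from 751 to 324. A fall in the count of a list in these fits, here or below, is therefore not particular to that list. These lists were drawn up with earlier results of these data known.

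Of 23 genes of B-cell receptor signalling, 16 were higher and 7 did not pass (median 1.30). Cd79b, the partner of Cd79a, had 512 and 534 CPM in the Hes1-derived libraries, against 77.8 and 126 CPM in the Fgfr3-derived ones, and rose by 2.36 ± 0.29 (edgeR adjusted p = 0.015). Blnk, the adaptor that links the receptor to its enzymes, showed a log2 fold change of 2.18, the kinase gene Blk 2.09 and the scaffold gene Bank1 2.03, each passing the test. Without Fgfr3-derived replicate 2, 5 of the 23 were higher, and without Hes1-derived replicate 3, 9. After scaling to eGFP reads 9 were higher.

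Inhibitory co-receptors and phosphatases, the functional class of Cd22, had 6 higher genes of 10 tested (median 1.84). Fcrl1 (2.58), Cd72 (2.23), Fcrla (2.13) and Inpp5d (1.64), which encodes the phosphatase SHIP, passed the test. Cd72 had 288 and 282 CPM in Hes1-derived and 38.6 and 82.6 CPM in Fgfr3-derived libraries. In the Siglec family, to which Cd22 belongs, 3 of 7 were higher. They were the B-cell gene Siglecg (2.03), the macrophage gene Siglec1 (4.18 ± 0.85, SE) and Siglech (1.52), a gene of plasmacytoid dendritic cells. The Siglec1 value rests on 109 and 42 reads in the Hes1-derived libraries against 3 and 6 reads in the Fgfr3-derived ones. Leaving out either Hes1-derived library, or replicate 2 of the Fgfr3-derived group, left 1 higher Siglec gene in each case. Of the inhibitory genes 4 were higher without Hes1-derived replicate 3, 4 without replicate 2 of the Fgfr3-derived group and 4 after scaling to eGFP reads.

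Of 22 tested genes of B-cell maturation, survival and homing, 12 were higher (median 1.43). Cxcr5, the receptor that leads B cells to follicles, rose by 2.79 ± 0.42 (edgeR adjusted p = 0.017) from 1.5 and 2.14 CPM in Fgfr3-derived to 14.7 and 10.5 CPM in Hes1-derived libraries. The homing receptor gene Ccr7 (2.36), Ly6d (2.36) and Tnfrsf13c (2.16), which encodes the BAFF receptor, also passed the test. Of 9 MHC class II genes 8 were higher (median 1.96), among them H2-Ob (2.46), H2-Ab1 (1.96) and H2-Aa (1.89). Without Fgfr3-derived replicate 2, 3 genes of each of these lists were higher, and without Hes1-derived replicate 3, 7 of the maturation genes. After scaling to eGFP reads 8 maturation genes were higher.

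Regulators had a lower median than the B-lineage lists above. Of 21 B-lineage transcription factor genes 9 were higher and 12 did not pass (median 0.86). Bach2 (2.05), Pou2f2 (1.80), Irf8 (1.5) and Ikzf1 (1.5) passed the test. Pou2f2 encodes Oct2, an octamer-binding factor that Pou2af1 assists, and had 32.2 and 24.2 CPM against 6.98 and 9.25 CPM. Ebf1, a factor shared by B cells and CAR cells and named after its values were seen, had 217 and 237 CPM in Hes1-derived and 331 and 154 CPM in Fgfr3-derived libraries, which overlapped (−0.09 ± 0.35). Of 8 other interferon regulatory factors, Irf5 (1.57) and Irf8 were higher, and neither passed without Fgfr3-derived replicate 2 or after scaling to eGFP reads. The transcription factor calls fell to 1 without Fgfr3-derived replicate 2, to 5 without Hes1-derived replicate 1, to 3 without Hes1-derived replicate 3 and to 3 after scaling to eGFP reads.

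Of 18 B-cell precursor genes 9 were higher (median 1.80). Rag1 (2.64), Vpreb3 (2.28), Il7r (2.27) and Igll1 (2.15) passed the test. Rag1 had 15.8 and 29.9 CPM in the Hes1-derived libraries, against 3.63 and 3.71 CPM in the Fgfr3-derived ones, so that it was lower in Hes1-derived replicate 1 than in replicate 3, as Pou2af1 was. Without Fgfr3-derived replicate 2, 4 of the precursor genes were higher, and without Hes1-derived replicate 3, 6.

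Of 12 tested plasma cell genes 2 were higher, 2010001M09Rik (2.35), which is Mzb1, and Slamf7 (1.88), and the median was −0.45. None was lower by edgeR, while 4 were lower at an unadjusted p under 0.05 and DESeq2 called 3 and limma-voom 1. Without Fgfr3-derived replicate 2, 1 of them was higher, and without Hes1-derived replicate 1, 2 were lower. Of 8 tested germinal centre genes, whose median was 0.19, Neil1 was higher (1.54) and none was lower by edgeR, with 1 lower at an unadjusted p under 0.05 and by DESeq2 and 0 by limma-voom. Neil1 did not pass without Fgfr3-derived replicate 2 or after scaling to eGFP reads. Constant-region genes of immunoglobulins were not analysed here, as 0 of 8 entries matched a row.

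**Figure D4:**
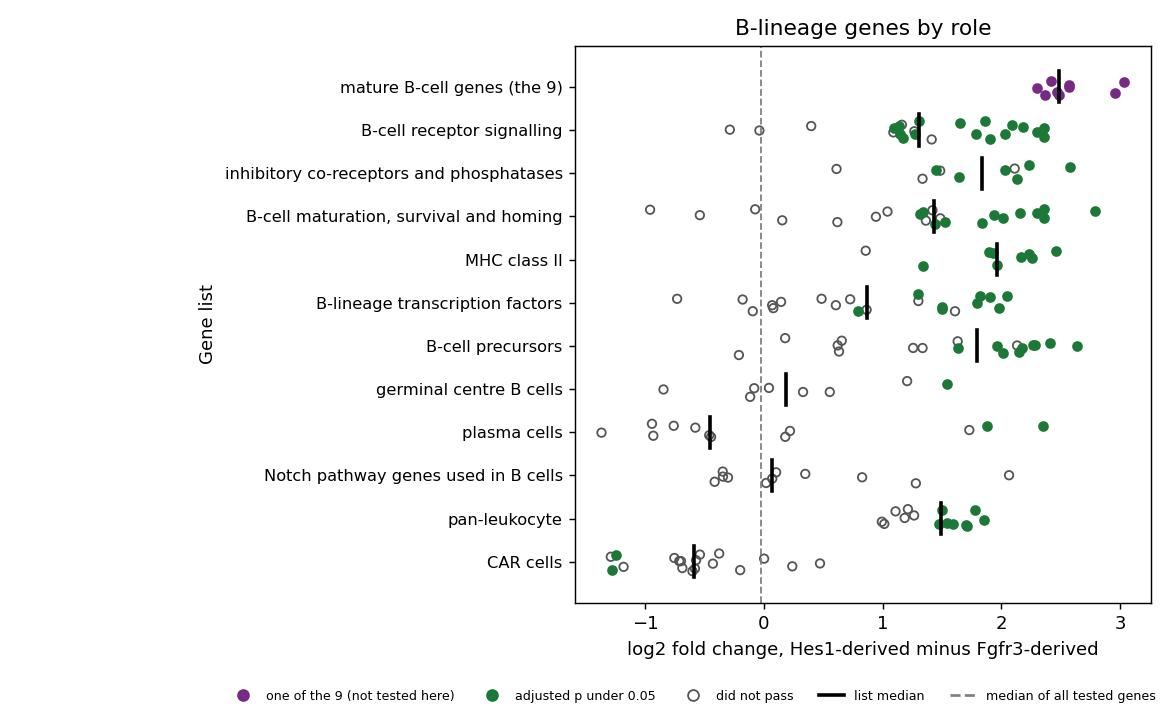
Log2 fold change, Hes1-derived minus Fgfr3-derived (x axis), of the tested genes of each list (rows), with 1 point per gene (purple for the 9 genes, green for an edgeR adjusted p under 0.05, open for genes that did not pass), list medians as black bars and the median of all tested genes as a dashed line. The 9 genes lie between 2.30 and 3.03, while the plasma cell median is −0.45 and the CAR cell median −0.59.

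Families and partners of the 9 genes were also read. None of 10 tested relatives of Ms4a1 in the Ms4a family passed edgeR (3 higher and 0 lower at an unadjusted p under 0.05, 2 higher by DESeq2 and 0 by limma-voom). The most abundant were Ms4a3, a gene of myeloid precursors, with 72.3 and 108 CPM against 46.3 and 80.7 CPM, and Ms4a4d with 51.5 and 36 CPM against 104 and 43.7 CPM. Among 9 tested Fc receptor genes, Fcrl1 and Fcrla were higher and none was lower, at an unadjusted p under 0.05 6 were higher and 0 lower. DESeq2 called 5 Fc receptor genes higher, and without Fgfr3-derived replicate 2 edgeR called 1. None of the 4 other Deltex genes passed edgeR, with Dtx3 (−0.66 ± 0.21, edgeR adjusted p = 0.082) the 1 gene at an unadjusted p under 0.05. DESeq2 and limma-voom called 0 Deltex genes.

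Of 11 Notch pathway genes that B cells use, edgeR called none (2 higher and 0 lower at an unadjusted p under 0.05, 2 higher by DESeq2 and 0 by limma-voom), with a median of 0.07. Adam10, which encodes a protease that cleaves Notch, had a log2 fold change of 0.10. Of 10 ISWI remodelling genes, Smarca1 was lower and none was higher. Smarca1 encodes SNF2L, the ATPase partner of the Cecr2 protein, and had 9.41 and 12.7 CPM in Hes1-derived and 51.0 and 31.0 CPM in Fgfr3-derived libraries, a fall by 1.89 ± 0.33 on the log2 scale (edgeR adjusted p = 0.021). Its call was lost after scaling to the CAR cell list or to eGFP reads and without Fgfr3-derived replicate 2. At an unadjusted p under 0.05, 3 ISWI genes were higher, and DESeq2 called 1 higher.

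The genes with the pattern most like the mean of the 9 were found by Euclidean distance between centred log2 CPM profiles over the 4 libraries. The 10 nearest, leaving out the 9 and predicted genes, were Oas3, Jph3, Ptafr, Mybpc2, Kcna3, Tlr5, Cxcr5, Tppp, Cd79b and Tmem163, at distances of 0.129 to 0.318. The 9 genes themselves lay between 0.159 (Cd22) and 0.671 (Fcer2a) from their mean. Cd79b and Cxcr5 were in the B-lineage lists and the other 8 in none of the lists. Oas3, an interferon-induced gene, had 27.0 and 27.6 CPM in Hes1-derived and 4.06 and 5.47 CPM in Fgfr3-derived libraries. Jph3 stood much lower, at 1.98 and 1.61 CPM against 0.197 and 0.306 CPM. With 4 libraries such a likeness is a description only.

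Summed markers of some other blood cells, though not of all, also lay higher in both Hes1-derived libraries. The summed level of the 9 was 1426 and 1325 CPM in Hes1-derived and 199 and 311 CPM in Fgfr3-derived libraries. Of 14 pan-leukocyte genes 8 were higher and none lower, with summed levels of 6922 and 8037 CPM against 1953 and 4225 CPM. Of 10 tested erythroid genes 9 were higher, with summed levels of 8210 and 4607 CPM against 1233 and 1848 CPM. Of 10 macrophage genes 3 were higher, at 399 and 491 CPM against 220 and 300 CPM in sum. Of 13 neutrophil genes Mmp8 was higher (1.67) and Mmp9 lower (−1.36), with sums of 28382 and 33589 CPM against 11890 and 24909 CPM. Without Fgfr3-derived replicate 3, 8 of the 13 neutrophil genes were higher, and DESeq2 called 6, limma-voom 3 and edgeR with CAR cell scaling 4. Neither neutrophil call held without Hes1-derived replicate 1, without replicate 3 of that group or without replicate 2 of the Fgfr3-derived group, and Mmp9 was also lost without replicate 3 of that group and after scaling to the CAR cell list or to eGFP reads. Without Fgfr3-derived replicate 2, 1 pan-leukocyte, 1 erythroid and 0 macrophage genes were higher, and without Hes1-derived replicate 3, 3 pan-leukocyte and 1 macrophage genes. The part of these cells in the levels of the 9 genes was not tested.

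Of 12 tested T-cell genes Lck, which B-1 cells also express, was higher (1.41), while the median was 1.40 and 10 of the 12 lay higher in both Hes1-derived libraries. At an unadjusted p under 0.05, 5 were higher and 2 lower, and DESeq2 called 4 higher and 2 lower. The 15 genes with a row summed to 88.5 and 91.2 CPM against 44.9 and 60.7 CPM. Of the CD3 genes that define T cells, Cd3d had 12.7 and 17.2 CPM against 3.82 and 7.49 CPM, and Cd3g 1.495 and 1.81 CPM against 0 and 0.229 CPM. Cd3e had 0.924 and 0.846 CPM against 0 and 0.688 CPM. None of the CD3 genes passed edgeR, and these genes were chosen after their values were seen. None of 10 NK cell genes passed edgeR (0 higher and 1 lower at an unadjusted p under 0.05, 0 by DESeq2 and 0 by limma-voom), and their sums of 78.2 and 108 CPM against 42.8 and 96.1 CPM overlapped. Siglech was the 1 higher gene of 7 tested for plasmacytoid dendritic cells, whose sums of 281 and 257 CPM against 294 and 244 CPM overlapped. Lck and Siglech lost their calls without either Hes1-derived library and without replicate 2 of the Fgfr3-derived group, and Siglech also after scaling to eGFP reads.

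Stromal markers stood on the other side. Of 18 CAR cell genes Csf1 (−1.24) and Foxc1 (−1.28) were lower and none was higher, with summed levels of 18499 and 12267 CPM in Hes1-derived and 27208 and 18234 CPM in Fgfr3-derived libraries, which overlapped. At an unadjusted p under 0.05, 0 CAR cell genes were higher and 4 lower, DESeq2 called 0 higher and 4 lower, and limma-voom 0 higher and 3 lower. Of 9 osteoblast genes 6 were lower, among them Spp1 (−3.72) and Sp7 (−2.24), with sums of 3656 and 3744 CPM against 15203 and 18961 CPM. Leaving out Hes1-derived replicate 1 gave 4 lower CAR cell genes, as did leaving out replicate 3 of the Fgfr3-derived group. The CAR cell calls were 0 without Hes1-derived replicate 3, 0 without replicate 2 of the Fgfr3-derived group and 0 after scaling to eGFP reads, where 3, 2 and 1 osteoblast genes were lower.

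**Figure D5:**
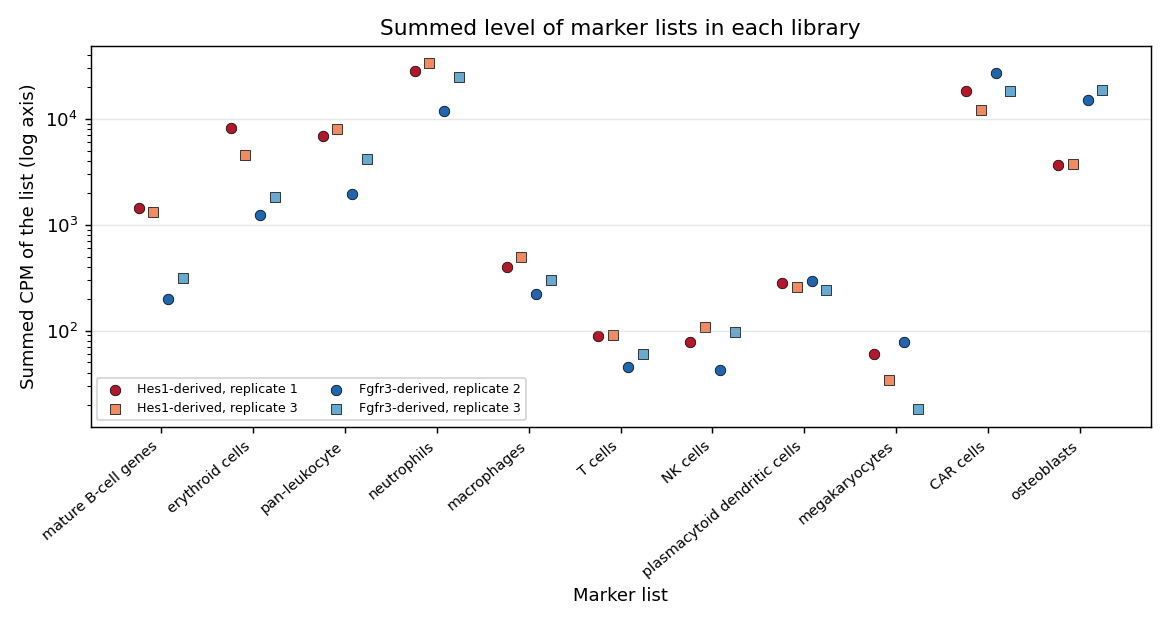
Summed CPM (y axis, log scale) of the 9 mature B-cell genes and of marker lists (x axis), with 1 point per library in the colours of the legend. The 9 genes and the erythroid, pan-leukocyte, neutrophil, macrophage and T-cell lists lie higher in both Hes1-derived libraries, osteoblast genes lie lower, and the sums of NK cell, plasmacytoid dendritic cell, megakaryocyte and CAR cell genes overlap between the groups.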

How the data were processed

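RNA of sorted femur cells was measured in 4 samples. The series' design text names a SMARTer kit and the labels' extraction protocol a 10X Chromium, and the table, with 1 count column per sample, was analysed as 4 bulk libraries. Per the submitters' processing notes, the build was mm10 and the tools were HTSeq, DESeq2, Cuffdiff, Cufflinks, Bowtie2 2.2.1, TopHat2 2.0.13 and FastQC; their roles, the annotation and the strand setting are not given in the sources used here. The deposited counts are whole reads per gene symbol. The deposited depth-normalized signal is the count multiplied by 1 constant per library, as checked on every value above 0. A regularized log2 of the counts was deposited as well, per the file names.

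Counts were fitted with edgeR 4.0.16 in R 4.3.3 (quasi-likelihood F test, TMM factors, robust dispersions, minimum count 10, which kept 14330 genes), with Benjamini-Hochberg adjustment and a threshold of 0.05. The fit has 2 residual degrees of freedom, and the labels do not say that libraries came from separate animals, so p-values measure only the spread between these libraries. SE was derived as the size of the log2 fold change over the root of the F statistic. The biological coefficient of variation was 27.8%. Libraries of a group differed by more than sampling noise (chi-square per degree of freedom 64.0 and 106). Alternatives used RLE, upper-quartile, total, CAR cell list and eGFP scaling, DESeq2 1.42.0, limma 3.58.1 (voom, and trend on log2 of the signal + 1), other filters, non-robust dispersions and leaving out each library. The fit was tested on simulated data, but the outcome is not given here and nothing is read from it.

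The 9 genes and all lists were chosen with earlier results of these data known. All 9 are named. Of each list up to 4 called genes per direction are named, by p-value, or the 2 most abundant if none was called; also the 10 nearest patterns (prior count 2, predicted genes left out), eGFP, tdTomato-WPRE and Cxcl12. Ptprc, Vpreb1, Vpreb2, Igll1, Rag1 and Rag2 served as references. Some genes that this rule names, and a planned comparison with another reference, are not reported here. Endothelial and megakaryocyte lists had 1 of 7 genes (Pecam1) and 0 of 6 genes higher, and none lower. At an unadjusted p under 0.05, 3 endothelial and 0 megakaryocyte genes were higher, and DESeq2 called 2 and 0. Of 5 tested conventional dendritic cell genes 0 passed edgeR, while 1 was higher at an unadjusted p under 0.05 and by DESeq2. Of 2 tested octamer-binding factor genes Pou2f2 was higher.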

Additional observations from a re-analysis of the deposited data

How the results depend on the processing

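Each of the 9 genes kept a positive log2 fold change in all 15 alternatives. The genes were chosen on this difference, and each lower Hes1-derived CPM was at least 3.69 times the higher Fgfr3-derived CPM. Their signs were thus largely fixed in advance, and nothing is read from them. The lowest log2 fold change was 2.04, for Pou2af1 without Hes1-derived replicate 3, and the highest 3.82, for Dtx1 after scaling to eGFP reads. Their median was 3.07 after scaling to the CAR cell list and 3.35 after scaling to eGFP reads, which also moved the median of all tested genes to 0.55 and 0.83. Relative to that median the 9 genes stood at 2.51 in the main fit and at 2.52 under both scalings. A change of scaling shifts every gene by nearly the same amount, so this likeness follows from the calculation. Over the fits that left out 1 library their median ran from 2.30 to 2.80. Over all genes the 751 higher and 940 lower calls became 324 and 19 with eGFP scaling and 1429 and 1557 with DESeq2, and the lower calls became 142 with CAR cell scaling. Leaving out 1 library gave from 80 to 1153 higher and from 158 to 963 lower calls. The share of higher calls was then 34.2% without Hes1-derived replicate 1, 54.5% without Hes1-derived replicate 3, 33.6% without Fgfr3-derived replicate 2 and 56.4% without Fgfr3-derived replicate 3. Among other B-lineage genes 21 to 70 were higher and 0 to 2 lower when 1 library was left out, and the lower calls were 5 with DESeq2, 1 with limma-voom and 1 with a filter of 50 reads. The cause of these moves was not tested, and the fits that left out 1 library also had fewer libraries. The median ratio of 2.51 to other mature B-cell genes became 3.18 with the whole precursor list, 1.17 with surrogate light chain reads and 1.21 with Rag1 and Rag2 reads as the reference, none of them planned. The surrogate light chain and Rag genes themselves had positive log2 fold changes in this contrast, so nothing is read from these ratios. Without length scaling the range of Hes1-derived levels was 44.3-fold in place of 160-fold. No paired analysis was possible because the groups share only 1 replicate number. With 33 to 63 reads in the Fgfr3-derived libraries, Dtx1 and Fcer2a are limited most by depth.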
